A study of Mus musculus with 6 samples.

Results

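The genes described here are 35 genes of fatty acid oxidation and its control by the peroxisome proliferator-activated receptors (PPARs), chosen by symbol from 23235 gene symbols in RNA sequencing tables of mouse duodenum. All 35 had a single row in the tables, and 34 passed the filter on low values described below. The remaining gene, Cyp4a14, was listed at 0 in each of 6 libraries.

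Fatty acids enter mitochondria as carnitine esters, are shortened there by repeated rounds of beta-oxidation, and pass electrons to the respiratory chain through the electron transfer flavoprotein. Very long and branched chains are first shortened in peroxisomes, and cytochromes of the Cyp4a family hydroxylate the far end of the chain in the endoplasmic reticulum. PPAR-alpha, bound to its partner RXR-alpha, switches on many of these genes when fatty acids are plentiful or the animal fasts. In the small intestine the absorptive enterocytes, which take up dietary fat, carry out much of this programme.

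The libraries came from 6 mice on a mixed background at 6 weeks of age, 3 control and 3 mutant, with 1 duodenum library for each. Controls 1 and 2 were Nkx2.2flox/+; Rosa26Tomato/+, and control 3 was Nkx2.2flox/+ with no reporter allele. The mutants, called TNint, had the genotype Nkx2.2flox/TN with both Villin-Cre/+ and Rosa26Tomato/+. Villin-Cre is a recombinase driven by an epithelial promoter of the intestine, and Nkx2.2 is a homeobox factor of enteroendocrine cells. TN denotes a mutated tinman domain, the part of Nkx2.2 that recruits corepressors. The floxed allele was present in all 6 mice, Cre and the TN allele were present only in mutants, and other tissues of the mutants also carried the TN allele, so effects of these differences cannot be told apart. The labels say nothing of litter, sex, feeding state or hour of dissection.

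Values are FPKM, fragments scaled to transcript length and to the number mapped, a scale on which genes of different length can be compared. The reads implied by the width of the FPKM intervals came to 14210000 to 21250000 in controls and 16880000 to 25910000 in mutants. Nkx2-2 itself had 1, 1.03 and 1.27 FPKM in the controls and 0.748, 0.744 and 0.666 FPKM in the mutants (adjusted p = 0.786 in limma). RNA came from the first 2 cm of duodenum after the stomach, and in such bulk RNA fewer cells of a type and less RNA per cell cannot be told apart. All 10 enterocyte markers were measured, with summed levels of 16490 to 25320 FPKM in controls and 18560 to 26260 FPKM in mutants. Pancreatic acinar markers summed to 227.3 to 11350 FPKM in controls and 2855 to 12350 FPKM in mutants. Smooth muscle markers summed to 653.9 to 914.2 FPKM in controls and 485.5 to 642.5 FPKM in mutants. All 8 had a negative log2 fold change (mutant minus control), with a median of −0.45. In limma 7 of the 8 had an unadjusted p under 0.05 (5.81% of all rows) and 0 passed after adjustment. In 6 of the 8 every mutant lay below every control, where 13.1% of all rows had groups apart in either direction. Whether this bears on the members was not tested.

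No member passed the test between mutant and control duodenum. In limma, fitted to log2(FPKM + 0.1) for all 15864 rows with a mean of at least 0.1 FPKM, 0 of 34 members passed an adjusted p of 0.05, the same as 0% of all rows, and 0 of 34 had an unadjusted p under 0.05, against 5.81% of all rows. With the replicate number as a block, which pairs the libraries by number, 3 of 34 had an unadjusted p under 0.05 (Acaa2, Acaa1b and Angptl4), against 7.89% of all rows, and the smallest adjusted p was 0.606. Without the block the smallest adjusted p of a member was 0.786. Of the 34, 20 had a positive and 14 a negative log2 fold change (mutant minus control), with a median of 0.04 beside −0.05 over all rows. No member had every mutant library above, or every mutant library below, every control library, whereas 13.1% of all rows did. All 34 intervals (95%) of the log2 difference held 0. In 31 members the interval lay inside ±1, a doubling or a halving, so for those members a doubling lies outside the interval, and in 19 it lay inside ±0.5. Without control 2 and mutant 2, the libraries in which many members were highest (below), again 0 members passed. In that limma fit 3 of 34 members had an unadjusted p under 0.05, against 1029 of 15864 rows. There 14 of 34 had groups that did not overlap, where 40.9% of all rows did with 2 libraries a group.

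**Figure D1:**
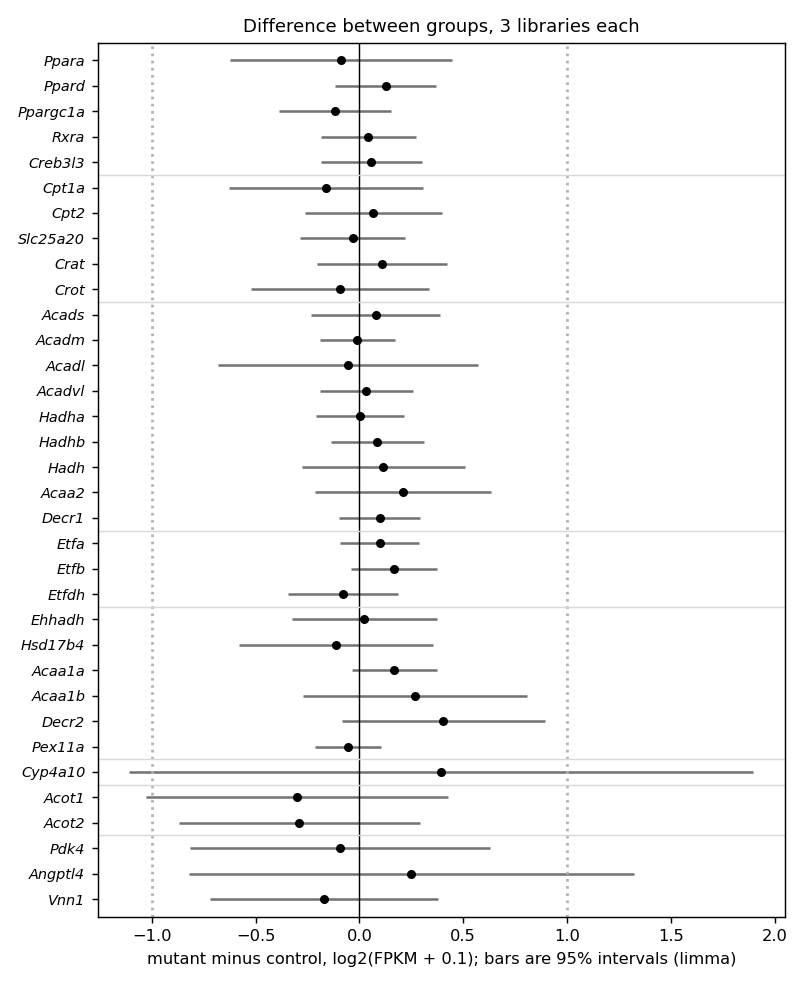
Difference between 3 mutant and 3 control libraries for each of 34 members, on the log2(FPKM + 0.1) scale, as the limma estimate (point) with its 95% interval (bar), in order of role from regulators to other PPAR targets. Dotted lines stand at ±1, and all 34 intervals cross 0, the widest being that of Cyp4a10 from −1.11 to 1.90.

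The authors' deposited table, made from read counts, lists an adjusted p of 1 for all 34 members, while an adjusted p under 0.05 was given in the authors' deposited table for 0.0378% of all genes with a p. At an unadjusted p under 0.05 the authors' deposited table has 1 member, Decr2, against 1.61% of all genes. In the authors' deposited table Decr2 had a mean of 905.5 normalized counts in controls and 1241 in mutants.

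The 5 regulators were all detected in each library, and their groups overlapped. Creb3l3, a membrane-tethered transcription factor of liver and gut that works with PPAR-alpha, had 187.1, 215.1 and 180.5 FPKM in controls and 196.9, 221.8 and 187.1 FPKM in mutants. It was the most abundant regulator, with control 2 and mutant 2 the highest libraries. Ppard, the receptor PPAR-delta, had 77.0, 60.6 and 70.2 FPKM in controls and 73.0, 72.7 and 80.5 FPKM in mutants. Its lowest value was in control 2, unlike most members. Rxra, the shared partner of the PPARs, had 43, 42.1 and 38.0 FPKM in controls and 39.5, 47.6 and 39.9 FPKM in mutants, with mutant 2 the highest library and control 3 the lowest.

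Ppargc1a, a coactivator that drives mitochondrial genes, had 13.6, 11.2 and 14.8 FPKM in controls and 11.6, 12.2 and 12.4 FPKM in mutants. Ppara, the receptor PPAR-alpha, had 6.62, 7.57 and 8.50 FPKM in controls and 4.97, 9.23 and 7.69 FPKM in mutants, with both the lowest and the highest library among the mutants. Per length, Ppard was thus about an order of magnitude above Ppara in this tissue piece (group means of 69.3 ± 8.23 and 75.4 ± 4.41 FPKM for Ppard and of 7.56 ± 0.940 and 7.30 ± 2.16 FPKM for Ppara, SD, n = 3 each). The log2 fold changes of the regulators ran from −0.12 for Ppargc1a to 0.13 for Ppard.

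Ppara and Ppargc1a are the members with more than 1 RefSeq transcript in the tables. NM_001113418 made up 91.4%, 73.6% and 80.0% of Ppara in controls and 74.6%, 75.8% and 92.6% in mutants. The other transcript of Ppara, NM_011144, held the rest. Ppargc1a was mostly NM_008904, at 96.4%, 85.0% and 87.5% of the gene in controls and 83.3%, 82.0% and 93.7% in mutants. In both genes the main transcript took its largest shares in control 1 and mutant 3, and the groups overlapped. In the limma fit over all transcripts none of the 4 passed, nor did any transcript of another member, while 0.0454% of all 19827 tested transcripts did. These shares are Cufflinks estimates for transcripts that share most of their length.

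Promoter sequences from RefSeq (build GRCm38.p6, 250 bases before to 50 after each start) were available for 27 members, with 29 promoters. They were searched on both strands for AGGTCANAGGTCA, the direct repeat with a 1-base spacer to which PPAR and RXR bind and which other nuclear receptors share, allowing 2 mismatches in its 12 fixed positions. A match was present in 4 of 29 member promoters (13.8%) and in 3.86% of all 32851 promoters of the same length, and no member promoter had an exact match. The sequences below show those matches in capitals, 5′ to 3′ on the strand of the gene. For Rxra (chr2:27709042-27709291, plus strand) and Etfa (chr9:55512244-55512493, minus strand) the 250 bases before the start are given, and for Creb3l3 (chr10:81092780-81092808, minus strand) and Slc25a20 (chr9:108662134-108662162, plus strand) the match with its flanks. Those of Rxra and Creb3l3 belong to 1 of 2 annotated starts, and that of Slc25a20 begins at base 7 of the transcript.
Rxra: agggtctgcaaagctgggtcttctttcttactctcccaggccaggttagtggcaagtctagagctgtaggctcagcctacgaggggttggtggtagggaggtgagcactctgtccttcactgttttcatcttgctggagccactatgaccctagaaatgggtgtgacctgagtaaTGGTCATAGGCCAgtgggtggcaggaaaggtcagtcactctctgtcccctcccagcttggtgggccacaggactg
Etfa: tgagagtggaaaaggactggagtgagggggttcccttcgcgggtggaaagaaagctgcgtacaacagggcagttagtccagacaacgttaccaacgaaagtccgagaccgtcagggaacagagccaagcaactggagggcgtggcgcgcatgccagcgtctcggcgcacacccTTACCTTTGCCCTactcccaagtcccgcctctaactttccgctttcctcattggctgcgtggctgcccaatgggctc
Creb3l3: ctgtaagtAGGGGAGAGGTCAcacagacc
Slc25a20: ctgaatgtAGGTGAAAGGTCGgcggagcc

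The match in Etfa reads on the opposite strand and starts 77 bases before the transcript start, that of Rxra 75 bases and that of Creb3l3 209 bases before it. Of these 4 genes Etfa, Creb3l3 and Slc25a20 had their highest FPKM in control 2 and mutant 2. Rxra did not, with control 1 above control 2. That pair was highest in 20 of all 34 members (58.8%), and a link between it and the matches was not tested. A match is a description of the letters in this window and no evidence of binding.

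The carnitine shuttle carries fatty acids into mitochondria. Cpt1a, carnitine palmitoyltransferase 1a, which sets the rate of entry, had 68.2, 69.8 and 60.2 FPKM in controls and 48.5, 81.8 and 51.4 FPKM in mutants. Mutant 2 was above every control and the other mutants were below every control (log2 fold change −0.16, SE 0.20, adjusted p = 0.868). Crat, carnitine acetyltransferase, had 36.0, 42.3 and 36.8 FPKM in controls and 44.8, 46.0 and 34.1 FPKM in mutants. Cpt2, which frees the acyl-CoA inside the mitochondrion, ranged from 87.7 to 118 FPKM over the 6 libraries, the carrier Slc25a20 from 51.2 to 63.2 FPKM and the peroxisomal transferase Crot from 73.6 to 111 FPKM. Log2 fold changes of the 5 genes ran from −0.16 to 0.11.

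Enzymes of the mitochondrial beta-oxidation cycle were among the most abundant members. Hadh, the short-chain hydroxyacyl-CoA dehydrogenase, was the highest of all 35, with 370.1 to 529.7 FPKM. Acaa2, the mitochondrial thiolase, had 233.1, 326.2 and 229.2 FPKM in controls and 265, 362.4 and 280.9 FPKM in mutants. It was highest in control 2 and mutant 2, and its log2 fold change was 0.21 (SE 0.18, adjusted p = 0.811), 0.07 without mutant 2 and 0.38 without control 2. Decr1, which reduces double bonds of unsaturated chains, had 67.1, 71.5 and 69.2 FPKM in controls and 66.9, 78.3 and 77.7 FPKM in mutants, a log2 difference of 0.10 (SE 0.08).

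The acyl-CoA dehydrogenases start each round of oxidation, each for a range of chain lengths. Acadvl (very long chains) had 137.6 to 161 FPKM over the 6 libraries, Acadm (medium chains) 100.7 to 114.4 FPKM and Acads (short chains) 42.0 to 57.9 FPKM. Acadm was among the steadiest members, with the highest library 1.14-fold above the lowest. Acadl (long chains) stood apart from its relatives, with 105.9, 120.7 and 201.8 FPKM in controls and 167, 108.7 and 126.5 FPKM in mutants. Its high libraries were control 3 and mutant 1, 1 of each group, and no other member had these as its highest pair. Its highest library was 1.91-fold above its lowest.

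Hadha and Hadhb encode the subunits of the trifunctional protein, which runs the later steps for long chains, and lie 341 bases apart in opposite orientation (mm9 chromosome 5, 30444844 to 30481520 and 30481862 to 30511123). Hadha ranged from 112.3 to 130.6 FPKM and Hadhb from 67.9 to 85.4 FPKM. The ratio of Hadha to Hadhb in FPKM ran from 1.49 to 1.65 in controls and from 1.34 to 1.60 in mutants, lowest in mutant 3. The authors' deposited table has means of 8413 and 8744 normalized counts for Hadha (control, mutant) and 792 and 854.6 for Hadhb. The Hadhb counts lie below the 1663 to 3666 reads implied by its FPKM. The ratio of these subunits is therefore uncertain, and the cause was not tested. The 9 genes of this step had log2 fold changes from −0.06 to 0.21.

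Electron transfer genes collect what the dehydrogenases release. Etfb, the beta subunit of the electron transfer flavoprotein, had 193.8, 226.4 and 201.8 FPKM in controls and 221, 236.5 and 240.2 FPKM in mutants. Control 2 exceeded mutant 1, which left the groups overlapping by that pair only (log2 fold change 0.17, SE 0.09, adjusted p = 0.786). Etfa, the alpha subunit, had 170.6, 191.3 and 167.7 FPKM in controls and 184.8, 196.2 and 185 FPKM in mutants. Etfdh, which hands the electrons to ubiquinone, had 92.1, 104.4 and 84.6 FPKM in controls and 89.4, 97.5 and 78.9 FPKM in mutants. The ratio of Etfa to Etfb stayed between 0.77 and 0.88. With median-ratio scaling of the libraries, Etfa, Etfb and the peroxisomal thiolase gene Acaa1a had every mutant above every control, as 3 of 34 members where 12.9% of all rows had groups apart, and the smallest adjusted p over all members was 0.781.

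In the peroxisomal group 1 member had a log2 fold change near that of Cyp4a10 (0.39), the gene with the widest interval. Decr2, the peroxisomal dienoyl-CoA reductase, had 32.3, 23.8 and 19.9 FPKM in controls and 26.3, 36.8 and 36.7 FPKM in mutants. Control 1 lay above mutant 1, and the other mutants were higher than all controls, giving a log2 fold change of 0.40 (SE 0.21, 95% interval −0.09 to 0.89, adjusted p = 0.786). That value was 0.25 without control 3 and 0.59 without control 1. Its value is 25.3 ± 6.34 FPKM in controls and 33.3 ± 6.07 FPKM in mutants (SD, n = 3 each).

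Acaa1a and Acaa1b are a pair of peroxisomal thiolase genes whose transcripts share sequence. Acaa1a had 153, 174.7 and 153 FPKM in controls and 168.8, 184.1 and 186.6 FPKM in mutants. Acaa1b had 33.4, 43.6 and 26.4 FPKM in controls and 34.0, 53.5 and 37.0 FPKM in mutants, highest in control 2 and mutant 2. Of the 50-base stretches of the Acaa1b transcript 35.5% also occur in another gene, namely Acaa1a, so reads can be divided between them only in part. The ratio of Acaa1a to Acaa1b in FPKM ran from 3.44 in mutant 2 to 5.80 in control 3. In the authors' deposited table Acaa1b had means of 282.5 (control) and 366.1 (mutant) normalized counts, below the 687 to 2011 reads implied by its FPKM. Acaa1a had 4127 and 4752 counts there.

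Ehhadh, the peroxisomal bifunctional enzyme, ranged from 84.6 to 116.1 FPKM and Hsd17b4, the second such enzyme, from 72.1 to 111 FPKM. Pex11a, a factor of peroxisome division, was the steadiest member at 26.4 to 29.8 FPKM. The 6 genes had log2 fold changes from −0.11 to 0.40.

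Cyp4a10 had the largest spread over the libraries of the 34. Cyp4a10, an omega-hydroxylase and classical PPAR-alpha target (mm9 chromosome 4, 115190892 to 115206254), had 4.45, 9.06 and 2.65 FPKM in controls and 4.17, 15.6 and 3.78 FPKM in mutants. Control 2 and mutant 2 were the high libraries, and the highest was 5.90-fold above the lowest. The group means were 5.39 ± 3.30 and 7.86 ± 6.74 FPKM (SD, n = 3 each), and the 95% interval of the log2 difference, −1.11 to 1.90, allows a change of more than 2-fold either way. Part of its transcript, 30.5% of 50-base stretches, also occurs in other genes, chiefly Cyp4a32 and Cyp4a31. Those genes had lower levels with the same high libraries: Cyp4a32 had 1.06, 1.22 and 0.760 FPKM in controls and 0.631, 2.70 and 0.825 FPKM in mutants. Cyp4a14, its neighbour and another PPAR-alpha target, was listed at 0 in each library, and its mean in the authors' deposited table was 0 in both groups. Hmgcs1, a cholesterol synthesis gene of every cell, was also listed at 0, so a listed 0 is not read as absence.

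Acot1 and Acot2 encode acyl-CoA thioesterases of cytosol and mitochondria that PPAR-alpha induces, and lie 15626 bases apart on mm9 chromosome 12. Acot1 had 4.91, 7.80 and 5.40 FPKM in controls and 3.15, 7.12 and 4.84 FPKM in mutants. Acot2 had 4.19, 5.14 and 3.78 FPKM in controls and 2.88, 5.19 and 2.93 FPKM in mutants. Both genes were highest in control 2 and mutant 2 and lowest in mutant 1. Their log2 fold changes were −0.30 (SE 0.31, adjusted p = 0.84) and −0.29 (SE 0.25, adjusted p = 0.811). Without mutant 1 they were −0.01 and −0.15, and without mutant 2 −0.58 and −0.56. The transcripts are alike in part, with 47.1% of 50-base stretches of Acot1 and 27.6% of those of Acot2 found in other genes, so their separate levels are uncertain. Acot1 also had the fewest implied reads of the 34, from 70 to 247.

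The other PPAR targets had a wide spread from mouse to mouse in both groups. Pdk4, the kinase that turns off pyruvate dehydrogenase when fat is burned, had 11.5, 19.5 and 16.8 FPKM in controls and 9.53, 20.3 and 16.01 FPKM in mutants. Vnn1, a pantetheinase on the epithelial surface, had 11.3, 15.3 and 12.5 FPKM in controls and 8.90, 16.4 and 10.4 FPKM in mutants. In both genes replicate 2 was the highest and replicate 1 the lowest library of each group. Angptl4, a secreted inhibitor of lipoprotein lipase, had 6.66, 10.4 and 16.4 FPKM in controls and 6.91, 13.7 and 20.4 FPKM in mutants. Unlike most members it was highest in control 3 and mutant 3. These libraries also had the largest pancreatic acinar sums, 11350 and 12350 FPKM, and whether those bear on Angptl4 was not tested.

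**Figure D2:**
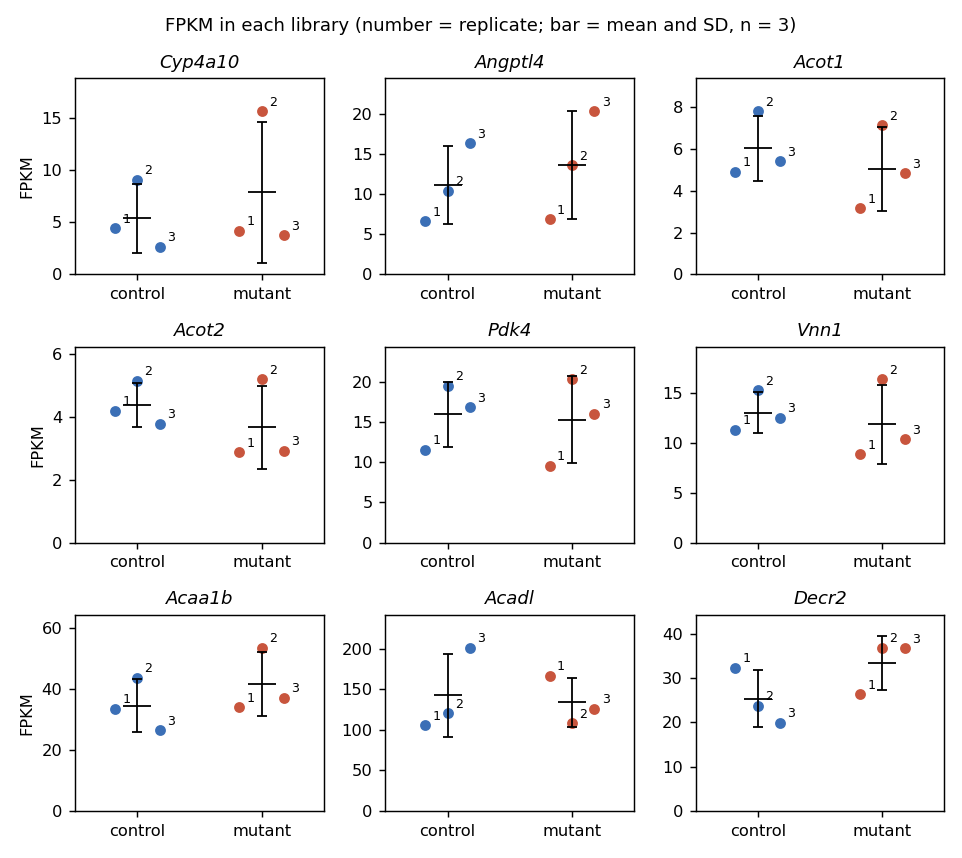
FPKM in each library for 9 members (points, numbered by replicate; control in blue, mutant in red), with the mean and SD of 3 libraries per group (black). Replicate 2 is the highest library of its group for Cyp4a10, Acot1, Acot2, Pdk4, Vnn1 and Acaa1b, while Angptl4 peaks in replicate 3, Acadl in control 3 and mutant 1, and Decr2 in control 1, mutant 2 and mutant 3.

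Many members were high in the same libraries, 1 of each group. In 20 of 34 members (58.8%) the highest libraries were control 2 and mutant 2, a pattern seen in 9.8% of all tested rows and picked out after the values were seen. The next most frequent pair, mutant 2 with mutant 3, was highest in 4 members. Mutant 2 was the highest library for 22 of 34 members (12.8% of all rows) and the lowest for 0 (13.1% of all rows). Both control 2 and mutant 2 were above the member's own mean in 27 of 34 members, against 33.5% of all rows. Control 3 was the lowest library for 12 members (35.3%, against 21.9% of all rows). Mutant 1 was the lowest for 8 (23.5%, near the 19.8% of all rows).

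The 20 members were 6 of 9 mitochondrial enzymes, 3 of 5 shuttle genes, 2 of 3 electron transfer genes, 3 of 6 peroxisomal genes, Cyp4a10, both thioesterase genes, 2 of the 3 other targets, and 1 of 5 regulators, Creb3l3. The size of the pattern differed between genes. The median over members of log2(FPKM + 0.1) minus the gene's own mean was 0.12 in control 2 and 0.20 in mutant 2, and −0.09, −0.10, −0.07 and −0.08 in control 1, control 3, mutant 1 and mutant 3. Over all rows the medians ran from −0.05 to 0.06. For Cyp4a10 these deviations were 0.72 in control 2 and 1.498 in mutant 2, and for the thioesterase genes their medians were 0.47 and 0.41.

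The main axis of a principal component analysis described the same libraries. The leading component of the 34 standardized members held 55.8% of their variance, and that of all rows held 30.2%. These shares come from sets of unlike size, and the share for other sets of 34 genes was not computed. Library weights of the members' component were 0.481 for control 2 and 0.646 for mutant 2 and negative for the other 4 libraries. Of the members 30 had a positive loading. The 4 with a negative one were Ppargc1a, Ppard, Acadl and Angptl4, the last close to 0.

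**Figure D3:**
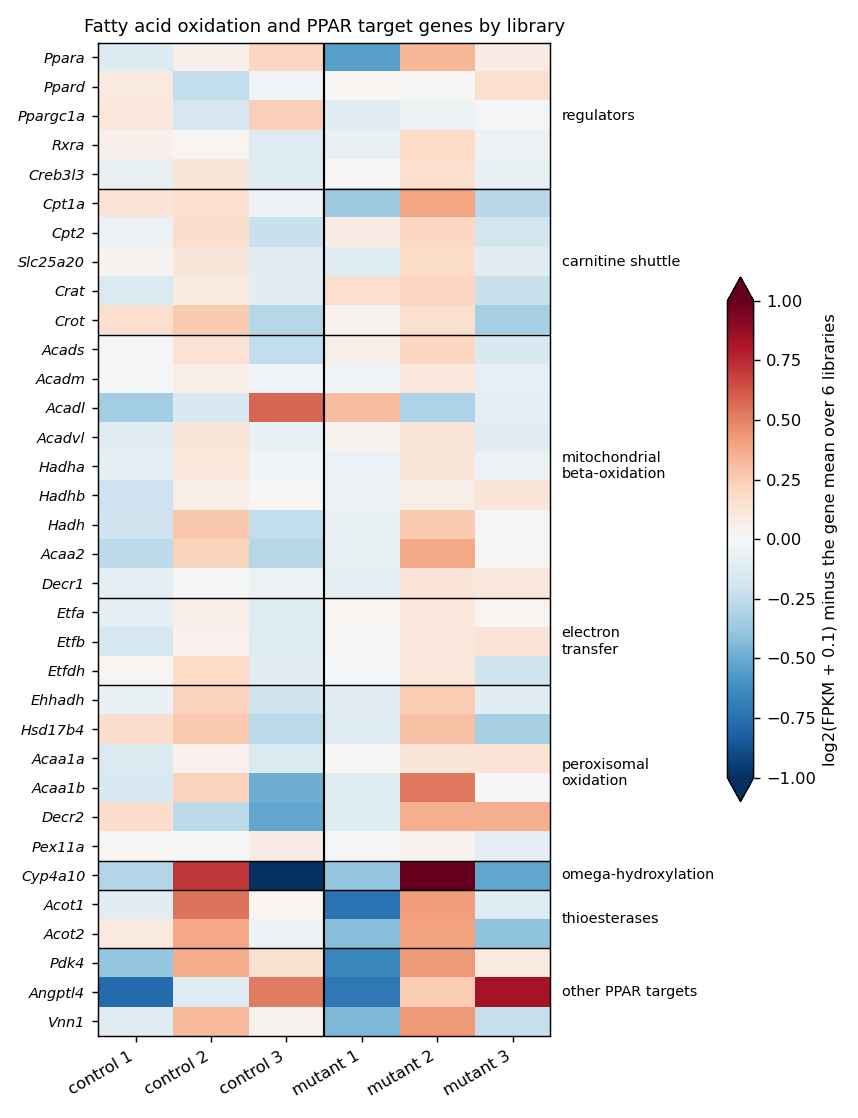
Level of each of 34 members (rows, grouped by role) in each of 6 libraries (columns; black vertical line between control and mutant), as log2(FPKM + 0.1) minus the gene's mean over the libraries, on a colour scale from −1 (blue) to 1 (red). The columns of control 2 and mutant 2 are red for most members, with Cyp4a10 at 0.72 and 1.498, and Ppard, Ppargc1a, Decr2 and Acadl are among those that depart from this.

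Enterocyte markers were high in the same libraries. Of the 10 markers 8 had control 2 and mutant 2 as the highest pair, and their median deviation was 0.18 and 0.22 there, and −0.06, −0.20, −0.01 and −0.17 in control 1, control 3, mutant 1 and mutant 3. These libraries were also the deepest of their groups, with 21250000 and 25910000 implied reads, and the part of depth was not tested. Each library was also scaled to 9 of the enterocyte markers (leaving out Fabp2, also a pathway gene), an alternative added after the data were seen. Then 4 of 34 members kept control 2 and mutant 2 as the highest pair, beside 1.08% of all rows, against 9.8% of all rows unscaled. This scaling lowers both libraries for every gene, so a lower count of members is in part built in. The 4 members were Cyp4a10, Acot1, Acot2 and Vnn1. On that scale Cyp4a10 deviated by 0.53 in control 2 and 1.29 in mutant 2. The median deviation of the members was then −0.06 in control 2, −0.01 in mutant 2 and 0.16 in mutant 3. Apoa1, Apoa4 and Apob among these markers are themselves lipoprotein genes.

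Other marker lists had other profiles. Smooth muscle markers had no gene with control 2 and mutant 2 as the highest pair, and their median deviation was 0.21 in control 2 and −0.36 in mutant 2. Clock output genes, a list that also holds core clock genes such as Arntl and Clock, had 1 of 13, with a median deviation of 0.44 in control 3. The list did not move as one there, since Dbp and Per1 were at their highest (25.8 and 10.8 FPKM) and Arntl at its lowest (7.38 FPKM). Adipocyte markers had 1 of 5, with Lep, Retn and Plin1 below the filter, and summed to 105 to 139 FPKM in controls and 120.6 to 144.6 FPKM in mutants. Most of that sum was Cidec (67.1 to 98.2 FPKM), also listed as a further PPAR target, and Fabp4 (35.9 to 44.1 FPKM). Adipoq was at 0.341 FPKM or lower and Cfd at 2.06 FPKM or lower in each library. Hepatocyte markers had 0 of 5 tested, with Fgb listed at 0.

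**Figure D4:**
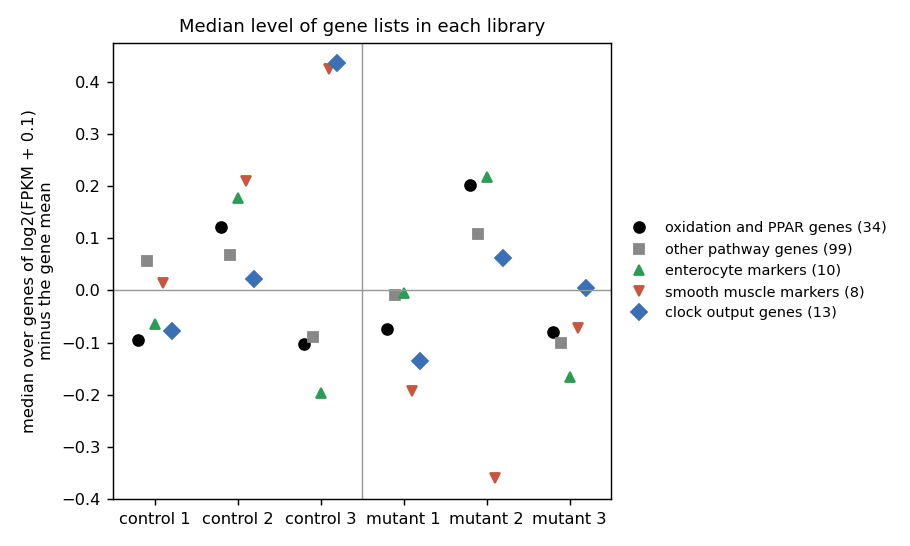
Median over the tested genes of each list (number in brackets) of log2(FPKM + 0.1) minus the gene's mean, for each library. The members (black circles) stand at 0.12 in control 2 and 0.20 in mutant 2, and the enterocyte markers (green triangles) at 0.18 and 0.22, while smooth muscle markers (red triangles) are at −0.36 in mutant 2.

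Further genes of the pathway were tested in the same fit. Of 106 further genes of oxidation, fatty acid uptake and activation, PPAR response and regulation found in the tables, 99 were tested and 0 passed in either direction in limma. At an unadjusted p under 0.05 there were 2 of 99, against 5.81% of all rows, and 5 of 99 had groups that did not overlap, against 13.1% of all rows, so both counts are below the background. Their median log2 fold change was −0.02, with 40 positive and 59 negative. Among those with a positive log2 fold change the smallest p was that of Eci3, an enoyl-CoA isomerase, with 43.6, 45.0 and 50.4 FPKM in controls and 62.7, 52.8 and 54.8 FPKM in mutants (log2 0.29, SE 0.09, adjusted p = 0.786). Ucp2, a mitochondrial carrier, had 189.5, 202.2 and 189.5 FPKM in controls and 226.8, 272.2 and 205.8 FPKM in mutants, each mutant above each control (adjusted p = 0.786). Acot8, a peroxisomal thioesterase, had a log2 fold change of 0.22.

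Among those with a negative log2 fold change the 3 with the smallest p were Ncor1 and Ncoa1, a corepressor and a coactivator of nuclear receptors, and the fatty acid binding protein gene Fabp3. Ncor1 had 45.3, 38.8 and 36.3 FPKM in controls and 35.6, 35.7 and 29.4 FPKM in mutants, and every mutant lay below every control (log2 −0.26, SE 0.12, adjusted p = 0.786). The log2 fold changes of Ncoa1 and Fabp3 were −0.24 and −0.56, and Fabp3 was at 0.516 FPKM or lower in each library. The pattern of control 2 and mutant 2 was present in 9 of 26 genes of oxidation and ketogenesis, 11 of 27 of activation and uptake, 5 of 19 further PPAR targets and 3 of 27 regulators.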

How the data were processed

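RNA from the duodenum of 3 control and 3 mutant mice was sequenced. Per the submitters' processing notes the authors used CASAVA 1.8.2, TopHat, Cufflinks and DESeq on build mm9; other versions and the strand setting are not stated. The deposited gene and transcript tables hold FPKM with confidence intervals, per the file headers. The authors' DESeq table holds group means of size-factor-normalized counts (a signal), their fold as a ratio and as log2, and unadjusted and adjusted p-values. Positions are 1-based on mm9.

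Differences were fitted across all genes with limma 3.58.1 in R 4.3.3 (trended variance) on log2(FPKM + 0.1), keeping rows that averaged 0.1 FPKM or more, with no rescaling, covariate or block. P-values were two-sided and adjusted by Benjamini-Hochberg over all rows, with a threshold of 0.05. Fold changes on this scale understate changes of low genes. The labels do not say how the mice are related, so p-values measure only the spread between these libraries. Depth was derived from the FPKM intervals, taking the upper bound as 2 standard errors from the value. The fit was run on simulated data with 200 changed genes, as a check of the code. Noise there was independent between genes, and the changes were larger than any member difference here. It therefore does not measure the power to find differences of the members.

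The members and lists were chosen with earlier results of these data known. Values in every library are given for the regulators, for the 2 genes with the smallest p in each other role group (all genes of groups of 2 or 3), and for the 5 members with the largest SD over the libraries. Acaa1b and Cyp4a32 were added after their values were seen. Of the other pathway genes, the 3 with the smallest p in each direction are named. Shared transcript sequence was counted in 50-base stretches of the longest GENCODE vM1 transcript. The labels give both groups replicate numbers 1 to 3. Deviations from the group means over all rows correlated at 0.106, 0.207 and 0.389 between same-numbered control and mutant libraries. Control 1 correlated slightly more with mutant 2 (0.127) than with mutant 1. Over the members alone the same-numbered values were 0.434, 0.83 and 0.765, and the others ran from −0.631 to 0.009. The labels state no batch, so whether the numbers pair the libraries is not known. The main fit therefore leaves them unpaired, and the fit with the replicate number as a block is an alternative. Alternatives were other pseudocounts, filters, scalings and priors, the replicate block, and each library left out.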

Additional observations from a re-analysis of the deposited data

How the results depend on the processing

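No member and no transcript of a member passed in any of 16 alternatives at gene level or 15 at transcript level, and no other pathway gene did, with a smallest adjusted p of 0.606 for a member. That value came from the fit with the replicate block (pairing libraries by number), which gave 0 members called and changed no call of a member. Over all rows 0 passed in the main analysis, 2 with the replicate block, 3 without control 2 and mutant 2, and 0 to 3 with 1 library left out. The count of members at an unadjusted p under 0.05 in limma, 0 in the main analysis, depended on the setting. It was 4 without control 2 (1022 of 15864 rows), 3 without mutant 2 (1187 rows) and 3 without both (1029 rows). With median-ratio scaling it was 1 (913 rows), and with any other single library left out 0 or 1. The median log2 fold change of the members ran from −0.03 to 0.09 over all alternatives and was negative in 4 of them. The number of members whose groups do not overlap rose from 0 to 3 with median-ratio scaling (12.9% of all rows), to 2 (Cpt2 and Crat) scaled to enterocyte markers (4.44% of all rows), and to 14 without control 2 and mutant 2, where 40.9% of all rows do not overlap with 2 libraries a group. It was 1 to 7 with 1 library left out (7 without control 2 and 7 without mutant 2), where 19.4% to 27.8% of all rows do not overlap. The number of members highest in control 2 and mutant 2 was 20 to 24 under the other alternatives that keep both libraries. It was 4 scaled to enterocyte markers, where the share of all rows also fell, to 1.08% from 9.8% in the main analysis. Without either library it has no value.

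Of 340 values of single members under settings other than leaving out 1 library, 332 kept their sign. The others turned from values near 0: with median-ratio scaling Acadm to 0.0411 and Slc25a20 to 0.0183, scaled to enterocyte markers Acadm to 0.0118, with quantile normalization Acadvl to −0.0358, Creb3l3 to −0.0148, Ehhadh to −0.0346 and Hadha to −0.0551, and without control 2 and mutant 2 Rxra to −0.0252. With 1 library left out, 18 members had a value of either sign. The ranges were −0.2425 to 0.2222 for Acadl, −0.0633 to 0.0292 for Acadm, −0.0262 to 0.1747 for Acads, −0.0187 to 0.1019 for Acadvl, −0.1057 to 0.6685 for Angptl4, −0.0248 to 0.1778 for Cpt2, −0.0129 to 0.1324 for Creb3l3, −0.2612 to 0.0477 for Crot, −0.256 to 0.8516 for Cyp4a10, −0.0978 to 0.1459 for Ehhadh, −0.152 to 0.0008 for Etfdh, −0.0574 to 0.0624 for Hadha, −0.2868 to 0.0244 for Hsd17b4, −0.3309 to 0.2093 for Pdk4, −0.2788 to 0.1608 for Ppara, −0.0443 to 0.0903 for Rxra, −0.1303 to 0.0218 for Slc25a20 and −0.4252 to 0.0116 for Vnn1. The other 16 members kept their sign, but leaving out 1 library moved 14 of them by over 1.5 times, all but Acaa1a and Etfb, for example Acaa1b from 0.07 without mutant 2 to 0.45 without control 2 and Cpt1a from −0.40 without mutant 2 to −0.02 without mutant 1. The causes were not tested. With 3 libraries a group, the interval of the log2 difference in the main analysis ran from −1.11 to 1.90 for Cyp4a10. It ran from −0.82 to 1.32 for Angptl4 and from −1.03 to 0.43 for Acot1. Each of these intervals reached beyond ±1, a 2-fold change, on at least 1 side. In the main analysis the intervals of all 34 members held 0, which does not show that a difference is absent. In the limma fit with the replicate block, Acaa2, Acaa1b and Angptl4 had an unadjusted p under 0.05, and none passed after adjustment.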
